A study of Mus musculus with 2 samples.

Results

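*Lmo2*, *Lyl1*, *Tal1*, *Hhex* and *Mef2c* encode transcription regulators that blood stem and progenitor cells carry into the T-cell pathway, and they are here called the legacy regulators. They were taken by name, as 5 of the 28692 genes in the count tables (ENSMUSG00000032698, ENSMUSG00000034041, ENSMUSG00000028717, ENSMUSG00000024986 and ENSMUSG00000005583), and were followed through cells that were ordered without them. The cells came from the livers of wild type CD1 mouse embryos at E13.5, depleted of TER-119+ cells and sorted as Sca-1+ cKit+ hematopoietic stem and progenitor cells (HSPCs). They were then grown without stroma, 1000 cells to a well, on coats of DL4 (a Notch ligand, 10 µg/mL) and VCAM-1 (an adhesion molecule, 2.32 µg/mL). There are 2 droplet single-cell libraries, FL001 and FL002, whose labels are the same apart from the number. The study describes capture right after sorting and after culture, but neither the labels nor the methods say which times or embryos a library holds, so the gates below are not times, and each library is given alone.

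In blood progenitors LMO2, a protein of LIM domains that does not bind DNA itself, bridges LDB1 and GATA factors to dimers of an E protein with a basic helix-loop-helix partner, TAL1 or LYL1. HHEX is a homeodomain factor of early blood and lymphoid progenitors, and MEF2C is a MADS-box factor of myeloid and lymphoid progenitors that class IIa histone deacetylases hold in check. Early T-cell precursors inherit RNA and protein of such factors, and their loss under Notch signalling is a known part of T-cell commitment. When they are active in committed thymocytes, as in several forms of T-cell leukaemia, the cells keep features of progenitors.

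Droplets were kept as cells with at least 1500 UMIs (counted RNA molecules), 500 or more genes and a mitochondrial share of no more than 10%, which left 1788 cells in FL001 and 4100 in FL002, with 10 barcodes found in both. Median depth was 7722 UMIs in FL001 and 4752.5 in FL002, so shares of cells are not on one scale between the libraries. The *Cd34* gate, 340 cells in FL001 and 591 in FL002, held cells with a UMI of the progenitor antigen gene *Cd34* and none of *Cd3g* or *Tcf7*. The *Tcf7* gate, 239 and 648 cells, held cells with a UMI of *Tcf7*, an early Notch target and T-lineage factor, and at most 2 of *Cd3g*. The *Cd3g* gate, 327 and 873 cells, needed 3 UMIs of this T-cell receptor complex gene and none of *Il2ra*, and the *Il2ra* gate, 738 and 1668 cells, a UMI of the interleukin receptor gene that marks the next thymocyte stage. The committed gate, 451 and 501 cells, needed 2 UMIs in all of *Ptcra*, *Lef1* and *Bcl11b*, genes of T-cell commitment. The gates overlap. The *Il2ra* gate shared 14 and 21 cells with the *Cd34* gate, 58 and 213 with the *Tcf7* gate and 275 and 291 with the committed gate. In all, 210 and 547 cells fell in no gate.

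T-lineage genes followed the gates: cells with 2 or more UMIs over *Cd3e*, *Cd3d*, *Cd3g*, *Tcf7*, *Lck*, *Gata3*, *Thy1* and *Rag1* made up 6.47% and 5.58% of the *Cd34* gate in FL001 and FL002, 88.3% and 87.3% of the *Tcf7* gate and over 95% of each later gate, in part because *Tcf7* and *Cd3g* define them. Stem-like genes (*Meis1*, *Hlf* and *Mecom*) reached 2 UMIs in 28.8% and 15.4% of the *Cd34* gate and in 4.18% and 1.39% of the *Tcf7* gate. Granulocyte and monocyte genes moved with the gates as well. Their list of 9 genes, led by *Mpo*, reached 2 UMIs in 78.8%, 54.8%, 15%, 18.0% and 2.66% of cells from the *Cd34* to the committed gate in FL001, and in 66.7%, 28.7%, 8.82%, 10.7% and 2.79% in FL002. In FL002, 1 of the 9 (*Ly6c2*) was at 0 in the *Tcf7* gate, while in FL001 all were found there. Cells with markers of some other lineages were then left out, and are called other-lineage cells below. Lists of mast cell and basophil, innate lymphoid and dendritic genes were not used for this, so cells with those genes stayed in. This left 71 and 191 cells in the *Cd34* gate and 96 and 452 in the *Tcf7* gate. *Lmo2* in the *Tcf7* gate was then at 8.35% and 6.77% of its *Cd34* gate level and *Mef2c* at 25.3% and 22.5%. The *Mef2c* value of FL002 lay under the interval given below for all cells, and the others lay within theirs. Over all members and gates, 18 of 40 values moved beyond their intervals and 1 turned direction. Megakaryocyte and erythroid genes were near 0 in the *Cd34* gate, at 23.0 and 24.1 CPM summed over 6 genes and at 12.2 and 12.8 CPM over 8.

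Sequence upstream of the genes is shown for members that fell and members that persisted, taken from the RefSeq table for GRCm38.p6, which held 4 of the 5 (not *Lmo2*). Each line is the 200 bases from 250 to 51 before a RefSeq start, 5′ to 3′ on the + strand. Capitals mark matches, on either strand and none overlapping another, to CAGNTG (the E-box form of E protein dimers with their partners), GATAA (a motif of GATA factors) and GGAAG (an ETS factor core).
Lyl1, chr8:84701207-84701406: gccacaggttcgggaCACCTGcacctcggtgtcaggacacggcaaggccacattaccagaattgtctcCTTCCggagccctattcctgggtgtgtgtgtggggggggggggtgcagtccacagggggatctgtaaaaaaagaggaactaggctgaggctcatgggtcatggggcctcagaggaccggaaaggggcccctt
Tal1, first of 2 starts, chr4:115056176-115056375: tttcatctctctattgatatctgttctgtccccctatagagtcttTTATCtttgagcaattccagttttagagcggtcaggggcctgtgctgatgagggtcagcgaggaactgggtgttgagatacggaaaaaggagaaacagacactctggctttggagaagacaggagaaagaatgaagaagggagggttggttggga
Hhex, chr19:37434591-37434790: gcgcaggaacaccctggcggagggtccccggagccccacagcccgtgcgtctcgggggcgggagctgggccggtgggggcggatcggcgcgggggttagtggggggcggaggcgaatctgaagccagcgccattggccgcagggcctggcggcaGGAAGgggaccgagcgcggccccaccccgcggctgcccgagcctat
Mef2c, first of 3 starts, chr13:83503784-83503983: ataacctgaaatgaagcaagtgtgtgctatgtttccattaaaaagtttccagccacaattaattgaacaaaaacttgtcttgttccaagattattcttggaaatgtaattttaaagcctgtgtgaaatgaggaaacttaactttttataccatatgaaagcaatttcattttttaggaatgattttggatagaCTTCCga
The *Lyl1* window held 1 CAGNTG match and 1 GGAAG match, the *Tal1* window 1 GATAA match, and the *Hhex* and *Mef2c* windows 1 GGAAG match each. Of the windows not printed, that of the second *Tal1* start held no match, that of the second *Mef2c* start 2 GATAA and 2 GGAAG matches, and that of the third *Mef2c* start 1 CAGNTG and 1 GGAAG match. Of all 32851 windows of this length in the table, 38.3% held CAGNTG, 19.3% GATAA and 55.0% GGAAG. G and C made up 60.5% of the *Lyl1* window, 46.5% of the *Tal1* window, 77% of the *Hhex* window and 30.5% of the *Mef2c* window. A match is a description of these letters and says nothing about binding.

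The legacy regulators did not leave together. *Lmo2* was mostly gone in the first gate with *Tcf7*, *Mef2c* was already much lower there and lower again in the *Cd3g* gate, and much of *Lyl1* and *Hhex* was still there in cells with commitment genes. In the *Tcf7* gate of FL001 and FL002, *Lmo2* was at 8.10% and 8.39% of its *Cd34* gate level, *Mef2c* at 25.2% and 27.1%, *Tal1* at 64.1% and 49.9%, *Hhex* at 72.3% and 81.3% and *Lyl1* at 110.1% and 101%. In the committed gate the order was the same in both libraries. There *Lmo2* was at 0.725% and 0.922%, *Mef2c* at 2.65% and 5.60%, *Tal1* at 21.3% and 11.5%, *Hhex* at 31.8% and 34.1% and *Lyl1* at 53.9% and 49.8%. Among neighbours in this order, the intervals of *Lmo2* and *Mef2c* were apart in both gates and libraries. Those of *Tal1* and *Hhex* overlapped in the *Tcf7* gate of both libraries and in the committed gate of FL001, those of *Mef2c* and *Tal1* in the committed gate of FL002, and those of *Hhex* and *Lyl1* in the *Tcf7* gate of FL002.

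A level is a gene's UMI sum in a gate scaled to 1e+06 UMIs of that gate (CPM), with a 95% exact Poisson interval, and a ratio to the *Cd34* gate has a 95% exact interval from the counts. With 1 library per group these intervals cover counting error only, and no test was made. A gene was said to fall where it was at least 4 times lower than in the *Cd34* gate and had at least 50 CPM in either gate. By that rule 0.967% of genes fell from the *Cd34* to the *Tcf7* gate in FL001 (32 of 3309) and 1.06% in FL002, and 1 of the 5 legacy regulators did, *Lmo2*, in both. From the *Cd34* to the *Cd3g* gate it was 1.74% and 1.41% of genes, to the *Il2ra* gate 1.57% and 1.34% and to the committed gate 2.12% and 1.61%, and in each of these 2 of the 5 fell, *Lmo2* and *Mef2c*. *Hhex* and *Lyl1* fell in none, and *Tal1* was below the 50 CPM minimum in every gate. Over all genes tested the median was 102% and 101% of the *Cd34* gate level in the *Tcf7* gate and 98.5% and 98.1% in the committed gate, values that the scaling to one total largely fixes.

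**Figure D1:**
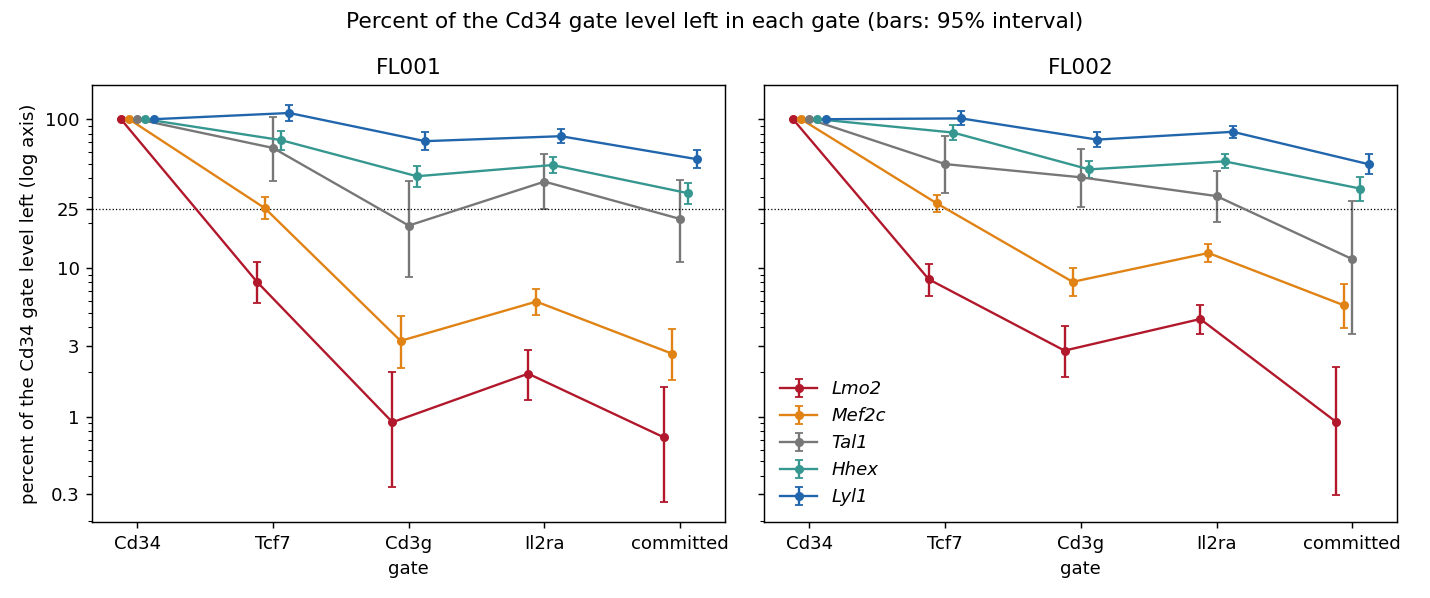
Percent of the *Cd34* gate level left in each gate (y axis, log scale) for the 5 genes, with FL001 on the left and FL002 on the right; points are ratios of CPM, bars are 95% intervals of counting error, and the dotted line is a level 4 times lower. *Lmo2* lies under 10% from the *Tcf7* gate on in both libraries and *Lyl1* no lower than 49.8% in any gate.

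*Lmo2*, the bridging subunit, stood at 232 CPM (214 to 250.1) in the *Cd34* gate, 18.7 CPM (13.6 to 25.2) in the *Tcf7* gate, 2.12 CPM (0.779 to 4.62) in the *Cd3g* gate, 4.50 CPM (3.02 to 6.47) in the *Il2ra* gate and 1.68 CPM (0.616 to 3.65) in the committed gate of FL001. In FL002 it stood at 229 CPM (213 to 246) in the *Cd34* gate, 19.2 CPM (15 to 24.1) in the *Tcf7* gate, 6.36 CPM (4.23 to 9.19) in the *Cd3g* gate, 10.4 CPM (8.31 to 12.8) in the *Il2ra* gate and 2.11 CPM (0.686 to 4.93) in the committed gate. The *Cd34* gate was high and the other 4 were low in both libraries, and the interval of the *Cd34* gate was far from all of them. From the *Cd34* to the *Tcf7* gate it fell 12.4-fold in FL001 and 11.9-fold in FL002, leaving 8.10% (5.80 to 11) and 8.39% (6.50 to 10.7). Of tested genes, 0.423% and 0.311% had as low a ratio. The committed gate held 6 UMIs in FL001 and 5 in FL002, against 643 and 770 in the *Cd34* gate, which left 0.725% (0.265 to 1.59) and 0.922% (0.299 to 2.16). *Lmo2* overlaps *4931422A03Rik* on the other strand in the GENCODE annotation, and that gene had 0 or 1 UMIs in any gate.

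**Figure D2:**
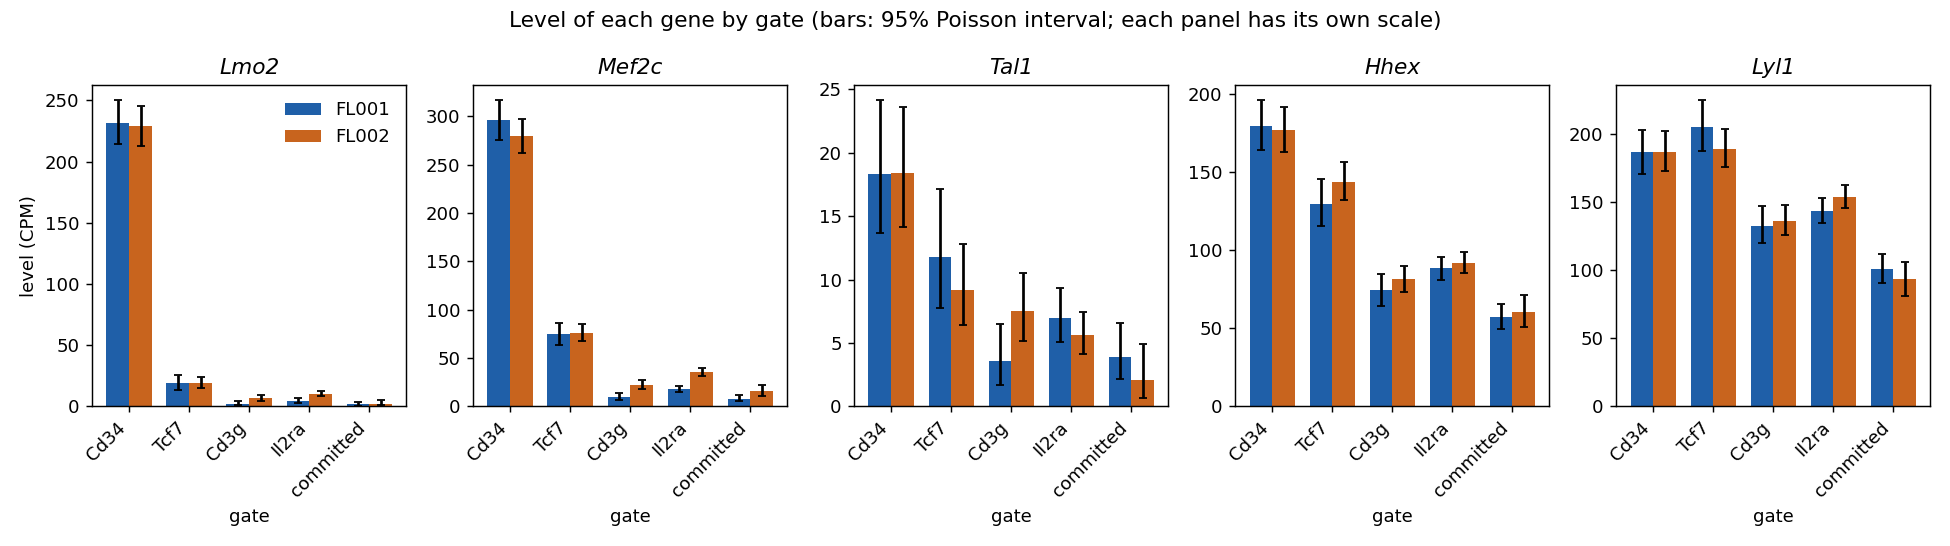
Level of each gene in CPM (y axis, a scale of its own in each panel) in the 5 gates, with FL001 in blue and FL002 in orange; bars start at 0 and error bars are 95% Poisson intervals. For *Lmo2* and *Mef2c* the *Cd34* gate stands alone, while *Hhex* and *Lyl1* are at 57.1 CPM or more in every gate.

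*Lyl1*, one of the helix-loop-helix partners of LMO2, was the most persistent. It was at 187 in the *Cd34* gate, 206 in the *Tcf7* gate, 133 in the *Cd3g* gate, 144 in the *Il2ra* gate and 101 in the committed gate of FL001, all in CPM. In FL002 it was at 187 in the *Cd34* gate, 189.6 in the *Tcf7* gate, 137 in the *Cd3g* gate, 154 in the *Il2ra* gate and 93.3 in the committed gate. Thus the *Tcf7* gate, where *Lmo2* had fallen, was not below the *Cd34* gate for *Lyl1*, with 110.1% (97.0 to 125) and 101% (90.8 to 113) left. The first lower value came with the *Cd3g* gate, at 64.6% (56.3 to 74.2) and 72.0% (64.5 to 80.4) of the *Tcf7* gate. In the committed gate 53.9% (47.0 to 61.8) and 49.8% (42.6 to 58.2) of the *Cd34* gate level remained, and 5.79% and 4.18% of tested genes had as low a ratio there. *Lyl1* overlaps *Nfix* on the other strand, a gene at 6.36 to 12.7 CPM over the gates.

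*Tal1*, the other helix-loop-helix partner, was scarce in every gate. FL001 held 51, 27, 10, 45 and 14 UMIs from the *Cd34* to the committed gate, and FL002 62, 35, 33, 47 and 5. Its level was 18.4 and 18.4 CPM in the *Cd34* gate, 11.8 and 9.20 in the *Tcf7* gate, and 3.92 and 2.11 in the committed gate. What was left in the *Tcf7* gate, 64.1% (38.6 to 104) and 49.9% (32.0 to 76.8), could not be told from the *Cd34* gate level in FL001 at this depth, while in FL002 the interval lay below it. The FL002 value turned to 100.1% without other-lineage cells and to 116% when cells were thinned to 1500 UMIs before the gates, so no order is read from it. In the committed gate 21.3% (10.9 to 39.1) and 11.5% (3.59 to 28.2) were left, below the *Cd34* gate in both libraries.

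*Hhex*, the homeodomain factor, went down by steps. In FL001 it was at 179.7 in the *Cd34* gate, 129.9 in the *Tcf7* gate, 74.3 in the *Cd3g* gate, 88.4 in the *Il2ra* gate and 57.1 in the committed gate, all in CPM. In FL002 it was at 177 in the *Cd34* gate, 144 in the *Tcf7* gate, 81.3 in the *Cd3g* gate, 92.1 in the *Il2ra* gate and 60.4 in the committed gate. The *Tcf7* gate kept 72.3% (62.4 to 83.6) and 81.3% (72.3 to 91.5) of the *Cd34* gate level, the *Cd3g* gate 41.3% (35.0 to 48.7) and 46.0% (40.2 to 52.5), and the committed gate 31.8% (26.9 to 37.5) and 34.1% (28.2 to 41.0). The intervals of the *Cd34*, *Tcf7* and *Cd3g* gate levels were apart in both libraries, and in these values no gate was as far as 4-fold below the *Cd34* gate. That depends on the processing. With cells thinned to 1500 UMIs before the gates, *Hhex* in the committed gate was at 21.6% and 9.59%, past that limit. In the committed gate 2.56% and 2.12% of tested genes had as low a ratio.

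*Mef2c*, the MADS-box factor, lay between *Lmo2* and *Hhex*. FL001 had 296 CPM (276 to 317) in the *Cd34* gate, 74.5 CPM (63.8 to 86.6) in the *Tcf7* gate, 9.55 CPM (6.29 to 13.9) in the *Cd3g* gate, 17.5 CPM (14.5 to 21.1) in the *Il2ra* gate and 7.83 CPM (5.21 to 11.3) in the committed gate. FL002 had 279 CPM (262 to 298) in the *Cd34* gate, 75.7 CPM (67.2 to 85.0) in the *Tcf7* gate, 22.5 CPM (18.3 to 27.4) in the *Cd3g* gate, 35.2 CPM (31.3 to 39.4) in the *Il2ra* gate and 15.6 CPM (11 to 21.5) in the committed gate. The *Tcf7* gate was intermediate in both libraries, and the 3 later gates were low. In the *Tcf7* gate 25.2% (21.3 to 29.8) and 27.1% (23.7 to 31.0) were left, values just short of the 4-fold rule, which stricter gates would pass (17.4% and 23.0%), and in the *Cd3g* gate 3.23% (2.12 to 4.74) and 8.06% (6.48 to 9.92). From the *Tcf7* to the *Cd3g* gate *Mef2c* was at 12.8% (8.21 to 19.3) and 29.7% (23.4 to 37.5), while *Hhex* was at 57.2% (47.7 to 68.5) and 56.6% (49.4 to 64.7).

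All 5 genes in FL001, and all but *Tal1* in FL002, read higher in the *Il2ra* gate than in the *Cd3g* gate, so the gates are not a strict series. The interval of the ratio between these gates took in an equal level for *Lmo2*, *Lyl1* and *Tal1* in FL001 and for *Hhex* and *Tal1* in FL002. *Mef2c* in the *Il2ra* gate was at 184% (119.9 to 291) and 156% (124 to 198) of its *Cd3g* gate level. The *Il2ra* gate sets no limit on *Cd3g*, and its cells with 0 to 2 *Cd3g* UMIs (93 and 316) held *Mef2c* at 70.6 and 77.8 CPM, against 9.01 and 23.7 in its cells with 3 or more. *Lmo2* divided the same way, at 20.2 and 28.8 against 1.98 and 5.44 CPM. *Lyl1* was at 179 and 197 against 138 and 142 CPM.

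At a like, small amount of *Cd3g*, *Lmo2* was far lower in cells with *Tcf7* than in cells without it. Cells with 1 or 2 *Cd3g* UMIs, a split chosen after the gate levels were seen, were divided by *Tcf7*. Those with *Tcf7* are all cells of the *Tcf7* gate. By the gate rules, those without it can lie only in the *Il2ra* gate, the committed gate or no gate. Many cells in no gate carried genes of other blood lineages, and these cells held *Lmo2* at 171 and 180 CPM. The 2 groups may thus differ in lineage as well as in *Tcf7*, which was not tested. Without a *Tcf7* UMI (72 cells in FL001 and 190 in FL002) *Lmo2* was at 133 CPM (105 to 166) and 117 CPM (97.4 to 139.8). With one (95 and 285 cells) it was at 11.3 CPM (5.62 to 20.2) and 10.5 CPM (6.22 to 16.6), and the 2 groups of cells were well apart in each library. The cells without *Tcf7* lay below the *Cd34* gate (232 and 229 CPM), with intervals apart. That gate also needs a *Cd34* UMI, so this difference is not one of *Cd3g* alone. Inside the *Tcf7* gate *Lmo2* read lower with *Cd3g*. It was at 24.3 CPM (16.6 to 34.3) and 26.3 CPM (19.8 to 34.3) in cells with 0 *Cd3g* UMIs, above the values at 1 or 2 UMIs. The intervals were apart in FL002 and overlapped in FL001. In FL002, 1 cell held 9 of the 55 *Lmo2* UMIs at 0 *Cd3g* UMIs, which the interval takes as separate counts. *Mef2c* divided less, from 200.045 and 188 CPM without *Tcf7* to 45.1 and 54.8 CPM with it. *Hhex* was at 147 and 153 against 105 and 128 CPM, and *Lyl1* at 207 and 175 against 199 and 188 CPM. Cells with *Tcf7* were the deeper ones here, with medians of 9840 and 5814 UMIs against 6805.5 and 5215.5.

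**Figure D3:**
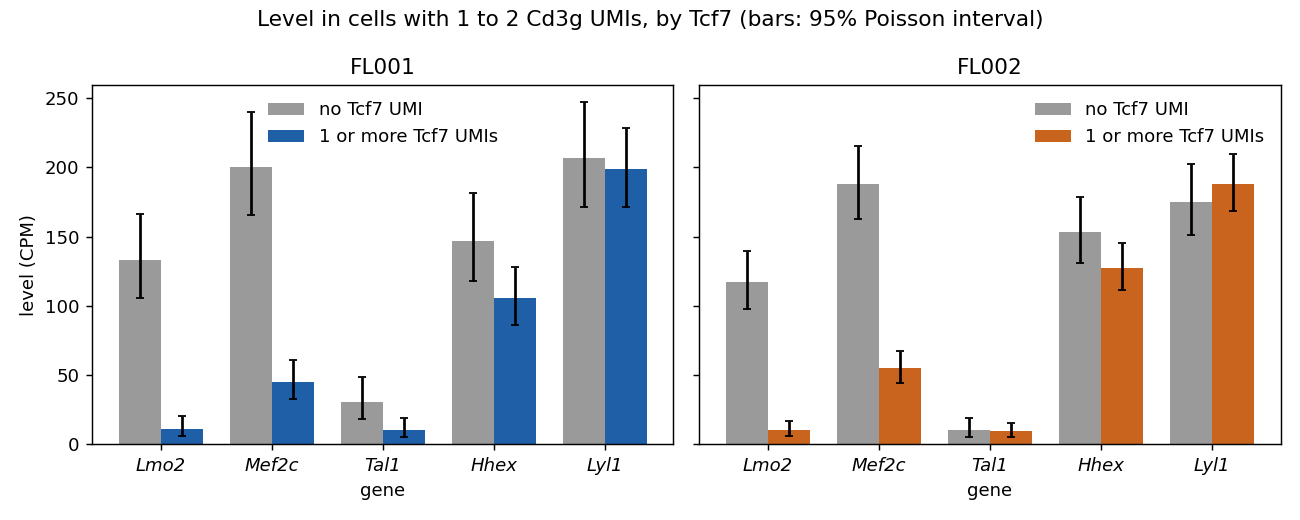
Level in CPM (y axis) in cells with 1 or 2 *Cd3g* UMIs, divided by the absence (grey) or presence (colour) of a *Tcf7* UMI, with FL001 on the left and FL002 on the right; error bars are 95% Poisson intervals. The bars of *Lmo2* and *Mef2c* stand apart and those of *Lyl1* overlap in both libraries. Cells in grey lie in the *Il2ra* gate, the committed gate or no gate, and cells in colour in the *Tcf7* gate.

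The same can be counted cell by cell. Cells with *Tcf7* and 0 to 2 *Cd3g* UMIs are the *Tcf7* gate itself, so the shares below restate its values and are no separate support. The cells without *Tcf7* include the *Cd34* gate and the cells in no gate. Among all cells with 0 to 2 *Cd3g* UMIs, *Tcf7* was found in 8.85% and 8.81% of those with a *Lmo2* UMI and in 46.5% and 47.8% of those without, at median depths of 7781 and 5440.0 against 7644 and 5080.0 UMIs. For *Mef2c* it was 19.7% and 21.0% against 44.6% and 47.8%. For *Hhex* it was 28.7% and 31.9% against 30.4% and 37.7%, and for *Tal1* 22.3% and 23.3% against 30.5% and 35.5%. *Lyl1* went the other way, with *Tcf7* in 32.4% and 36.3% of cells with a *Lyl1* UMI against 22.4% and 32.2% of cells without, and the cells with *Lyl1* were deeper, at medians of 8710.5 and 5922 UMIs against 5736 and 4397.

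Inside the *Tcf7* gate the level of *Lmo2* read higher in cells that still had *Cd34*. These cells (86 and 134) held 29.0 CPM (18.9 to 42.5) and 49.0 CPM (35.5 to 66.0) of *Lmo2*. Those without (153 and 514) held 12.2 CPM (7.09 to 19.5) and 10.3 CPM (6.92 to 14.6). The intervals overlapped in FL001 and were apart in FL002. Of the cells with a *Lmo2* UMI, 18 and 28 had *Cd34* and 15 and 28 did not. *Mef2c* was at 114 and 113 against 49.4 and 64.6 CPM in these cells, and *Lyl1* at 213 and 184 against 201 and 191 CPM. By *Tcf7* itself, cells with 1 UMI had 29.2 and 31.3 CPM of *Lmo2* and cells with 2 or more 11.7 and 11.3 CPM. Even in the cells of this gate with *Cd34*, *Lmo2* was thus far below the *Cd34* gate.

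Ordered by *Cd3g* alone over all kept cells (0, 1 to 2, 3 to 5, 6 to 10 and over 10 UMIs), *Mef2c* was at 227, 103, 19.7, 9.29 and 7.82 CPM in FL001 and at 207, 105, 39.4, 25.2 and 18.4 CPM in FL002, lower in each bin than in the one before. *Hhex* also went down bin by bin, at 171, 121, 99.9, 80.1 and 74.1 CPM and 171, 137, 97.8, 79.8 and 77.8 CPM. *Lyl1* was nearly level up to 3 to 5 UMIs in FL001, at 186, 202, 203, 134 and 128 CPM, and in FL002 at 186, 183, 149, 143 and 137 CPM. *Lmo2* was at 159.8, 51.0, 12.6, 5.79 and 4.09 CPM in FL002, and in FL001, where it was at 165, 57.0, 3.48, 0 and 2.10 CPM, the bin of 6 to 10 held 0 UMIs in 128 cells, which allows up to 4.28 CPM (upper bound of the Poisson interval).

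A further step lay inside the *Il2ra* gate, between cells with 0 to 1 UMIs of the commitment genes (463 and 1377 cells) and cells with 2 or more (275 and 291). *Lyl1* was at 162 and 165 CPM in the former and 108 and 96.5 CPM in the latter. *Hhex* was at 105 and 97.6 against 56.0 and 62.8 CPM. Both genes were thus lower once the commitment genes were on, with intervals apart in both libraries, and *Mef2c* went from 24.4 and 39.4 to 4.13 and 12.7 CPM. *Tal1* was at 8.22 and 6.24 against 4.59 and 2.24 CPM.

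By share of cells, *Lmo2* was found in 69.1% (63.9 to 74.0) of the *Cd34* gate of FL001 and 59.7% (55.7 to 63.7) of FL002 (95% exact binomial intervals), and in 13.8% (9.70 to 18.8) and 8.64% (6.59 to 11.1) of the *Tcf7* gate. It was found in 1.33% and 0.798% of the committed gate. *Mef2c* went from 79.7% and 71.2% to 41.4% and 29.9%, and then to 2.88% and 4.59%. *Lyl1* was found in 71.2, 76.2, 48.3, 60.4 and 42.6% of cells from the *Cd34* to the committed gate of FL001 and in 58.4, 60.0, 41.8, 47.0 and 30.9% in FL002, and *Hhex* in 68.8, 61.5, 41.6, 45.7 and 31.5% and 60.9, 50, 30.2, 34.1 and 22.2%. *Tal1* was found in 14.7% and 8.97% of the *Cd34* gate and in 2.66% and 0.998% of the committed gate. The median depth of a gate lay between 6998 and 9459 UMIs (FL001) or between 4175 and 5733 UMIs (FL002), highest in the *Tcf7* gate of both.

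After each cell was thinned to 1500 UMIs, which left out no cell, all shares were lower. *Lmo2* and *Mef2c* were again far rarer in the *Tcf7* gate than in the *Cd34* gate, and *Lyl1* was not. *Lmo2* was found in 30.6, 1.26, 0.612, 1.22 and 0.222% of cells in FL001 and in 27.6, 2.93, 0.916, 1.38 and 0.200% in FL002, and *Mef2c* in 35, 9.62, 1.22, 1.36 and 0.665% and 34.5, 10.5, 3.09, 4.2 and 1.40%. *Lyl1* was found in 21.5, 32.2, 15.3, 17.8 and 9.76% and 23.7, 22.1, 17.4, 18.2 and 11.4%, and *Hhex* in 26.2, 16.7, 8.56, 11.2 and 7.54% and 25.4, 16.0, 10.7, 11.8 and 7.39%. Cells with a *Lmo2* UMI had 2.74 and 2.18 of them on average in the *Cd34* gate and 1.3 and 1.3 in the *Tcf7* gate, at all UMIs. At 1500 UMIs per cell it was 1.25 and 1.26 against 1 and 1.05, the latter in 3 and 19 cells. Such a mean nears 1 as a level falls, so it is not a result apart from the fall in level and share.

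**Figure D4:**
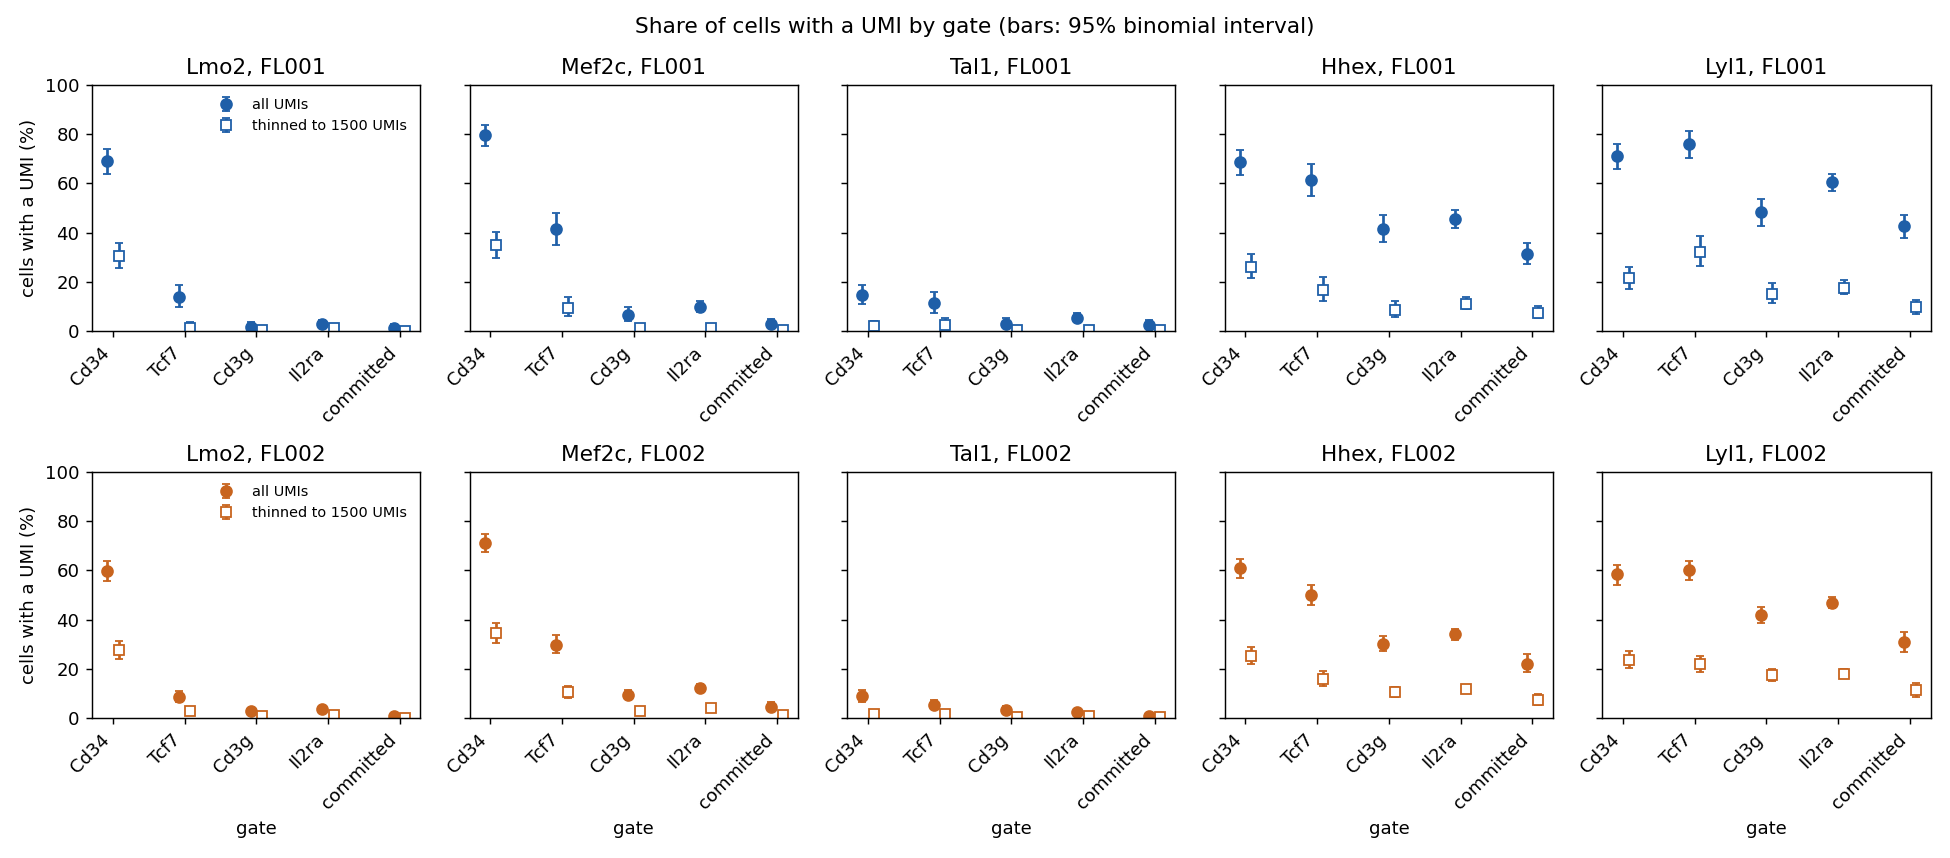
Share of cells with a UMI (y axis, percent) in each gate, a panel per gene, FL001 above and FL002 below; filled points use all UMIs, open squares use 1500 UMIs per cell, and bars are 95% exact binomial intervals. *Lmo2* drops between the *Cd34* and *Tcf7* gates with either measure, whereas *Lyl1* does not.

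Free RNA was read from droplets with 1 to 100 UMIs. In these *Lmo2* was at 72.8 and 70.3 CPM, *Mef2c* at 54.0 and 70.3, *Hhex* at 114 and 129 and *Lyl1* at 179.7 and 139.7. The committed gate held 2.31% and 3.0% of that level for *Lmo2*, 14.5% and 22.2% for *Mef2c*, 50.3% and 46.8% for *Hhex* and 56.1% and 66.8% for *Lyl1*. *Mpo*, a granulocyte gene, stood at 3.78% and 14.5%. *Lmo2* was under the ratio of *Mpo* in both libraries, but not under that of every such gene. Other granulocyte and globin genes read in this way ran from 1.10% (*Elane*) to 10.2% (*Prtn3*) in FL001. In FL002 they ran from 0% (*Hbb-bs*) to 38.4% (*Elane*). *Lmo2* lay within the range of its library in both, and *Lyl1* and *Hhex* lay above it in both. *Mef2c* lay above it in FL001 and within it in FL002. The part of free RNA in these levels was not tested.

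The cells of the *Il2ra* gate that had *Lmo2* differed from the rest of that gate. In it, 22 cells of FL001 and 62 of FL002 had a *Lmo2* UMI, of which 11 and 34 had 0 to 2 *Cd3g* UMIs. The gate shares cells with the *Cd34* and *Tcf7* gates, so not all of these are late cells. Of the cells with *Lmo2*, 72.7% and 46.8% had 2 or more granulocyte and monocyte UMIs, against 16.3% and 9.28% of cells without it. For 2 or more *Cd34* UMIs it was 31.8% and 30.6%, against 3.77% and 1.12%. The cells with *Lmo2* were deeper, with medians of 10112 and 6677 UMIs against 7809.5 and 4401. Among them 22.7% and 19.4% were in the 5% of cells with the highest Scrublet doublet scores of their library, against 6.56% and 7.47%. Whether these are doublets or cells between the stages was not tested.

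Cells of the committed gate with *Mef2c*, 13 and 23 in number, had 2 or more granulocyte and monocyte UMIs in 53.8% and 17.4%, against 1.14% and 2.09% of the cells without *Mef2c*. Genes of dendritic cells, which use MEF2C as well (*Itgax*, *Siglech*, *Irf8* and *Cst3*), reached 2 UMIs in 76.9% and 43.5% against 33.3% and 16.1%, at median depths of 13275 and 5331 against 6858 and 4112 UMIs, while *Itgax* and *Siglech* were at 0 in the whole committed gate. *Lmo2* in the committed gate rested on 6 and 4 cells, of which 2 and 3 had such doublet scores.

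Within the *Cd34* gate the genes lay in partly different cells. In cells with 2 or more UMIs of the stem-like genes *Meis1*, *Hlf* and *Mecom* (98 and 91 cells), *Lmo2* was at 325 CPM (286 to 368) and 352 CPM (303 to 408), above the 232 and 229 CPM of the whole gate. In cells with 2 or more UMIs of the lymphoid-primed genes *Flt3*, *Il7r* and *Dntt* (57 and 47 cells), *Mef2c* was at 440.0 CPM (385 to 501) and 443 CPM (374 to 521), against 296 and 279 CPM in the whole gate, and *Lmo2* at 209 and 199 CPM. *Dntt* had no UMI in the *Cd34* gate of either library, so this subset rests on *Flt3* and *Il7r*. Among the subsets compared, *Mef2c* was thus highest in the lymphoid-primed cells and *Lmo2* in the stem-like cells of both libraries. Cells with granulocyte and monocyte genes (268 and 394) held *Lmo2* at 232 and 230.2 CPM and *Mef2c* at 294 and 264 CPM, near the gate as a whole. *Tal1* in cells with megakaryocyte or erythroid genes rested on 5 and 3 UMIs in 11 and 19 cells. Cells of none of these kinds (36 and 149) had *Lmo2* at 158 and 189 CPM. The subsets overlap.

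In the *Cd34* gate the genes were found together about as often as their shares alone give. Over the 10 pairs, cells with both were 0.871 to 1.13 times the number expected from the shares in FL001 and 0.805 to 1.26 times in FL002. In the *Tcf7* gate the falling pair, *Lmo2* with *Mef2c*, was found together in 20 and 27 cells, 1.46 and 1.61 times the number expected. With the depth of each cell in the expectation it was 1.32 and 1.41 times. In the *Il2ra* gate it was 11 and 28 cells, 5.05 and 3.73 times, and 4.11 and 3.07 times once the depth of each cell entered the expectation. The *Il2ra* gate also holds cells of the *Cd34* and *Tcf7* gates. At 1500 UMIs per cell this pair was found in only 1 and 1 cells of the *Tcf7* gate and 1 and 4 of the *Il2ra* gate, too few to read a ratio. The persisting pair, *Lyl1* with *Hhex*, stood at 1.05 and 1.08 times in the *Tcf7* gate, or 1.01 and 1.0 times with depth. In the committed gate this pair stood at 1.37 and 1.28 times, or 1.18 and 1.10 times with depth. At 1500 UMIs per cell it was at 0.776 and 0.697 times in the *Tcf7* gate (10 and 16 cells with both) and at 0.904 and 0.475 times in the committed gate (3 and 2 cells), so no excess is read for this pair. These ratios describe the cells of each library, and no test was made of them.

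At least 3 of the 5 genes were found in 70.3, 36.4, 6.73, 8.81 and 2.44% of cells from the *Cd34* to the committed gate in FL001 and in 54.1, 18.4, 4.12, 6.35 and 1.60% in FL002. None of them was found in 1.18, 7.95, 36.4, 25.3 and 42.4% and 2.37, 17.0, 39.2, 34.5 and 53.7%. All 5 together were seen in 15 and 8 cells of the *Cd34* gate, in 1 and 0 of the *Tcf7* gate and in 0 of the 3 later gates. The share of cells with *Lyl1* or *Hhex* but no *Lmo2* was 25.6, 74.9, 60.6, 70.2 and 55.0% in FL001 and 32.1, 70.5, 54.9, 58.2 and 43.5% in FL002. At 1500 UMIs per cell it was 28.2, 43.5, 22.6, 26.0 and 16.6% in FL001 and 30.5, 34.3, 26.7, 26.9 and 18.2% in FL002. At this equal depth the intervals of the *Cd34* and *Tcf7* gates were apart in FL001 and overlapped in FL002. The later gates then read lower than the *Cd34* gate in both libraries. A cell without a UMI of a gene may still hold its RNA. At 1500 UMIs per cell, 3 or more genes were found in 8.53, 1.26, 0.306, 0.542 and 0% and 7.61, 0.926, 0.115, 0.719 and 0.200%. For the 0 cells of 451 in FL001 the upper bound of the exact binomial interval is 0.815%, and 3 counts of the total would be 0.665%.

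**Figure D5:**
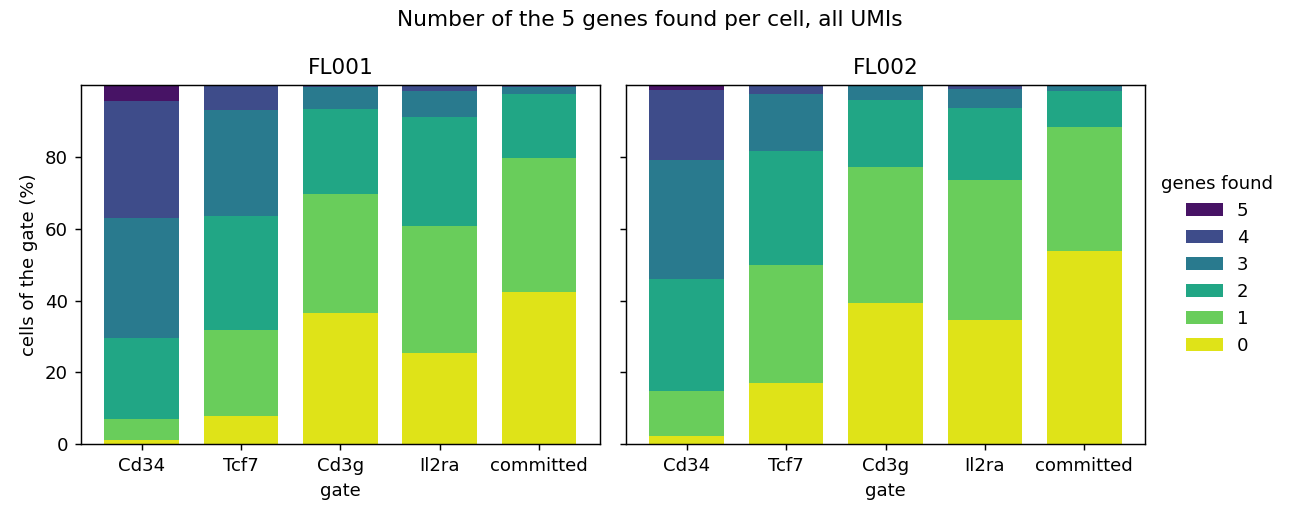
Share of cells (y axis, percent of the gate) by the number of the 5 genes found, in the 5 gates of FL001 and FL002 with all UMIs. Cells with 3 or more genes make up 70.3% and 54.1% of the *Cd34* gate and 2.44% and 1.60% of the committed gate.

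The partners with which LMO2, TAL1 and LYL1 form complexes moved less than *Lmo2*. Of 15 partner genes, 13 had at least 20 CPM in the *Cd34* gate or the gate compared. In the committed gate of FL001, 2 of these fell at least 4 times (*Gata2* and *Lmo1*), 1 rose at least 4 times (*Gata3*) and 10 did neither, while 2.49% of all genes with that level fell and 3.34% rose. In FL002, 1 fell (*Gata2*), 1 rose (*Gata3*) and 11 did neither, against 2.05% and 3.15% of all genes. Their medians were 80.0% and 102% of the *Cd34* gate level, against 98.5% and 98.1% over all genes tested. *Gata2*, the GATA factor of progenitors, was at 4.66% and 9.65%, and *Gata3*, that of T cells, at 1001% and 874%. *Gata3* had risen in the *Tcf7* gate already, to 521% and 495%, the 1 of 13 to do so there in either library, against 0.87% and 0.77% of all genes. *Lmo1*, a close relative of *Lmo2*, was at 17.3% and 36.5%, and *Ssbp2*, a cofactor of LDB1, at 30.7% and 40.2%. *Tcf12*, which encodes the E protein HEB, was at 312% and 367%. *Ldb1*, the scaffold partner of LMO2, was named after its values were seen and was at 80.0% and 102%.

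Several other progenitor factors fell as well. Of 14 listed, 11 were measured in the committed gate, where 7 in FL001 and 6 in FL002 fell and 0 rose, against 2.49% and 2.05% of all genes that fell and 3.34% and 3.15% that rose, with medians of 19.4% and 21.7%. By the *Tcf7* gate, where 1.13% and 1.23% of all genes had fallen by this rule, it was 3 in each library, the homeobox gene *Hoxa9* (to 17.7% and 11.1%), the stem-cell factor gene *Hlf* (to 3.07% and 4.74%) and the fetal chromatin gene *Hmga2* (to 8.35% and 8.78%). *Fli1*, an ETS factor gene, was at 77.3% and 75.2% in the committed gate. Of 7 genes of the MEF2 family and its class IIa deacetylases, 4 were measured there and 0 fell, while 1 rose in each library, beside the same shares of all genes. *Mef2a* was at 47.8% and 36.1% and *Mef2d* at 75.4% and 144%. *Hdac4* rose to 745% and 599%, and *Hdac7*, which did not reach the 4-fold rule, was at 314% and 373%.

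The genes most like each in pattern were ranked among 2861 genes by the root mean square difference of log2(CPM + 5) changes from the *Cd34* gate, over 4 gates and 2 libraries (8 values). For *Lmo2*, *Adgrl4*, *Mpo*, *Lyz2* and *Klf2* were among the 5 nearest, from 0.68 to 1.01 log2 units away. For *Mef2c* the nearest 5 were *Prtn3*, *Lyz2*, *Hoxa9*, *Mpo* and *Ccnd1*, from 0.51 to 0.63. *Mpo*, *Lyz2* and *Prtn3* in these lists are granulocyte and monocyte genes. For *Lyl1* they were *Gatad1*, *Tpst2*, *Mpp6*, *Hspbp1* and *Ccnd2* (0.12 to 0.16), and for *Hhex* *Ptpn18*, *Ncf4*, *Zyx*, *Smco4* and *Ogfrl1* (0.16 to 0.20). *Tal1* gave *Ipo11*, *Ncf4*, *Cyth4*, *Ptpn18* and *Smco4* (0.17 to 0.22), of which *Ncf4*, *Ptpn18* and *Smco4* are also on the list of *Hhex*. With candidates of at least 100 CPM in place of 50, 3, 2, 2 and 4 of the 5 genes were shared for *Lyl1*, *Tal1*, *Hhex* and *Mef2c*.

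Between the libraries the levels of the 5 genes in the *Cd34* gate were alike, with ratios of FL002 to FL001 from 0.944 to 1.0 whose intervals held 1. The remnants of the falling genes were higher in FL002. *Lmo2* had a ratio of 3.0 (1.22 to 8.85) in the *Cd3g* gate and 2.30 (1.5 to 3.64) in the *Il2ra* gate, and *Mef2c* of 2.35 (1.53 to 3.75), 2.0 (1.61 to 2.51) and 1.99 (1.19 to 3.38) in the *Cd3g*, *Il2ra* and committed gates. *Tal1* had 2.12 (1.02 to 4.82) in the *Cd3g* gate. All other intervals held 1, those of *Lyl1* and *Hhex* in every gate among them. Free RNA, taken from the 8 granulocyte and globin genes of the committed gate, came to 3.17% of UMIs in FL001 and 18.6% in FL002. For *Mef2c* that is 1.71 and 13.1 CPM. For *Lmo2* it is 2.31 and 13.1 CPM, more than the 1.68 and 2.11 CPM that the committed gate held. In FL002 the estimate lay above the interval of that level (0.686 to 4.93 CPM), so judged by *Lmo2* the share of FL002 is too high. In FL001 it lay within the interval (0.616 to 3.65 CPM), so *Lmo2* does not show that share to be too high. The same share was used for every gene of a library, so the *Mef2c* estimate of FL002 may be too high as well. The part of free RNA in the differences between the libraries was not tested.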

How the data were processed

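Gene expression was measured in single cells of 2 libraries made with 10X Chromium and sequenced on an Illumina NextSeq. The authors computed the gene by barcode matrices with CellRanger (version not given in the sources used here) and deposited them as raw UMI counts, with no selection of cells. The submitters' processing notes name the build mm9.

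Barcodes with at least 1500 UMIs, 500 genes or more and no more than 10% mitochondrial UMIs were kept, 1788 of 1824 and 4100 of 4113 that reached the UMI minimum. Scrublet marked 0.391% and 0.0244% of cells at its own threshold, under the 0.5% taken as the least for a working caller, so no cell was removed as a doublet, and the 5% of highest scores were left out only as an alternative. Gates, levels and ratios were computed in each library alone with Python 3.11.15, numpy 2.4.6, scipy 1.17.1, pandas 2.3.3 and scanpy 1.11.5. Intervals are exact Poisson, exact binomial or exact conditional binomial intervals at 95%, and since neither labels nor methods state a condition between the libraries, no test between them was made. Shares were also read after each cell was thinned at random to 1500 UMIs. Free RNA came from droplets of 1 to 100 UMIs, 308744 and 293224 in number. The 4-fold rule and the ratio intervals were tested on simulated counts for the *Cd34* to *Tcf7* gate comparison of FL001. These were independent Poisson counts per gene, the setting that the intervals assume. They could not show how UMIs that cluster in a few cells affect the intervals.

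The 5 genes, the gates and the gene lists were chosen with earlier results of these data known. From each list the text names the 3 genes with the largest fall and the 2 with the largest rise or smallest fall in the committed gate, those shared by the libraries. Some splits that were added later are marked as such. Others that the plan did not list carry no mark. These are the splits of the *Il2ra* gate by *Cd3g* and of the *Tcf7* gate by its *Tcf7* UMIs. The comparisons of cells with and without a UMI of a member were not listed either. Alternatives changed the cell filters, gates, scaling, thinning, free RNA and the level and fold limits. Promoter sequences are those of RefSeq for GRCm38.p6, and overlapping genes those of GENCODE M21. Coordinates of the count tables were not used. Of the genes nearest in pattern to Lmo2, 1 is not reported here.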

Additional observations from a re-analysis of the deposited data

How the results depend on the processing

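Of 360 values of percent of the *Cd34* gate level left under 9 alternatives, 263 stayed within the interval of the reported value, 95 moved further and 2 turned direction. None of the 40 values moved with a minimum of 3000 UMIs or a mitochondrial maximum of 5%. With cells thinned to 1500 UMIs before the gates, only 4 of the 40 stayed, 35 moved and 1 turned direction. *Tal1* in the *Tcf7* gate of FL002 (49.9%) turned to 116% with thinning before the gates and to 100.1% without other-lineage cells.

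Thinning each cell to 1500 UMIs before the gates, which also changes which cells enter them, gave for the *Tcf7* gate of FL001 *Lmo2* 5.61%, *Mef2c* 10.8%, *Tal1* 17.5%, *Hhex* 43.2% and *Lyl1* 93.8%, and for that of FL002 *Lmo2* 5.82%, *Mef2c* 20.7%, *Hhex* 53.0% and *Lyl1* 80.7%. For the committed gate it gave *Lmo2* 0%, *Mef2c* 0%, *Hhex* 21.6% and *Lyl1* 33.1% in FL001 and *Lmo2* 0%, *Mef2c* 1.09%, *Tal1* 40.0%, *Hhex* 9.59% and *Lyl1* 32.7% in FL002.

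Stricter gates gave *Lmo2* 4.98%, *Hhex* 57.7% and *Mef2c* 17.4% (*Tcf7* gate) and *Mef2c* 1.09% (committed) in FL001, and *Lmo2* 4.62% and *Mef2c* 23.0% (*Tcf7* gate) and *Hhex* 21.0% and *Mef2c* 3.50% (committed) in FL002. Without other-lineage cells *Lyl1* was at 90.3% and 45.2% and *Mef2c* in the committed gate at 1.0% in FL001, and *Mef2c* at 22.5% and 3.61% in FL002. Subtraction of free RNA gave *Lmo2* 0% in the committed gate of both libraries and, in FL002, *Lmo2* 2.82% and *Mef2c* 23.5% in the *Tcf7* gate and *Lyl1* 41.7%, *Hhex* 23.8% and *Mef2c* 0.947% in the committed gate. The share subtracted in FL002 was too high as judged by *Lmo2*, so too much may have been taken off for each gene there. For FL001 *Lmo2* does not show this. The mean of per-cell CPM gave *Lyl1* 46.7% (committed, FL001), exclusive gates *Mef2c* 32.2% (*Tcf7* gate, FL002), and leaving out the highest doublet scores *Lmo2* 0.199% (committed, FL002). Beyond these constructions, the cause was not tested.

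*Lmo2* fell at least 4 times from the *Cd34* to the *Tcf7* gate under all 9 alternatives in both libraries, and *Mef2c* did so under some of them. In the committed gate *Hhex* was more than 4 times lower with thinning before the gates in both libraries. In FL002 it was so with stricter gates and with free RNA subtracted too. The order *Lmo2*, *Mef2c*, *Tal1*, *Hhex*, *Lyl1* held in the committed gate in 10 of 10 settings, the reported one included, in FL001 and in 9 of 10 in FL002. With thinning before the gates *Lmo2* and *Mef2c* tied there at 0% in FL001, which is counted as in order. It held in the *Tcf7* gate in 9 and 8 settings, in the *Cd3g* gate in 9 and 5 and in the *Il2ra* gate in 9 and 8. In the *Il2ra* gate of FL001, thinning before the gates put *Tal1* lowest and *Mef2c* below *Lmo2*. The count of genes that fell to the *Tcf7* gate, 32 and 34, was 66 and 70 at 20 CPM, 15 and 20 at 100 CPM, 77 and 78 for a 2-fold and 18 and 23 for an 8-fold limit, and that to the committed gate, 73 and 54, was 151 and 122, 31 and 30, 169 and 141, and 42 and 32. Depth limits *Lmo2* and *Tal1* in the committed gate, with 6 and 14 UMIs in FL001 and 5 each in FL002. No paired analysis was possible because each group is 1 library and no test was made.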

Other observations

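The cells in none of the gates, 210 in FL001 and 547 in FL002, had no UMI of *Tcf7* or *Il2ra*, and many carried genes of other blood lineages. Of them 53.8% and 39.9% had 2 or more UMIs of the granulocyte and monocyte list, 12.4% and 6.58% of the megakaryocyte list, 7.14% and 5.48% of the erythroid list and 6.67% and 7.86% of the mast cell and basophil list. *Tal1* was higher here than in any gate, at 35.0 CPM (26.1 to 45.9) and 24.2 CPM (18.6 to 30.8), or 191% and 131% of its *Cd34* gate level. In FL001 the interval of that percentage lay above the *Cd34* gate level, and in FL002 it held it. *Lmo2* was at 171 and 180.2 CPM, *Lyl1* at 172 and 175, *Hhex* at 161 and 174 and *Mef2c* at 222 and 215.

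Subsets of these cells by marker list were chosen after the values were seen, and some overlap. Cells with 2 or more megakaryocyte and erythroid UMIs (36 and 70) held *Tal1* at 101 CPM (66.4 to 147) and 58.9 CPM (36.9 to 89.2), from 27 and 22 UMIs. TAL1 is a known regulator of both lineages. In the same cells *Lmo2* was at 295 and 335 CPM, above its level in the other subsets, while *Hhex* was at 123 and 149.9 CPM and *Lyl1* at 175 and 149.9 CPM. Cells with granulocyte and monocyte genes (113 and 218) had *Tal1* at 25.3 and 17.2 CPM and *Lmo2* at 145 and 188 CPM. Cells with mast cell and basophil genes were few (14 and 43) and had little *Lmo2* (36.3 and 61.5 CPM, 4 and 15 UMIs) and *Mef2c* (54.4 and 111 CPM) beside *Lyl1* at 163 and 168 CPM.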
